A study of Mus musculus with 18 samples.

Results

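The 9 enzymes Fdft1, Sqle, Lss, Cyp51, Msmo1, Nsdhl, Hsd17b7, Sc5d and Dhcr7 carry farnesyl diphosphate through squalene and lanosterol to cholesterol. They were taken as the rows of the authors' FPKM table (fragments mapped to a transcript, scaled to its length and to the library's total) whose Ensembl mouse identifiers map to these symbols. All 9 were found among 23474 gene identifiers, each with 1 row. Their levels are described in liver and epididymal fat of male C57BL/6J mice in 3 diet groups. GT mice ate a high-fat diet to which an ethanol extract of green tea was added at 0.25% by weight, HFD mice the high-fat diet without it, and ND mice a normal diet. Feeding started at 5 weeks of age, lasted 12 weeks and ended at 17 weeks, with 10 individually housed mice per diet and no genetic change named for any group. Each diet gave 3 polyA RNA-seq libraries per tissue, 18 in all. The labels do not say whether a library came from 1 mouse or from a pool, so p-values measure the spread between these libraries, which may be technical. The labels do not give the make-up of the high-fat diet.

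Cholesterol is built in the endoplasmic reticulum, and the liver is a main site of its synthesis, while fat cells are known for storing free cholesterol. Genes of the pathway share a regulator, SREBP2: when membrane sterols run low, its escort SCAP carries it to the Golgi, where proteases release a fragment that enters the nucleus and switches the genes on, and INSIG proteins hold SCAP back when sterols are plentiful. Of the 9 enzymes, Fdft1 (squalene synthase) joins a pair of farnesyl diphosphates into squalene, Sqle (squalene epoxidase) adds oxygen to it, and Lss (lanosterol synthase) closes the rings. Cyp51 starts the removal of the extra methyl groups, Msmo1 (methylsterol monooxygenase), Nsdhl (a sterol dehydrogenase) and Hsd17b7 (a sterol ketone reductase) complete it, and Sc5d (lathosterol oxidase) and Dhcr7 (7-dehydrocholesterol reductase) act on the last double bonds.

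RefSeq promoter windows on GRCm38.p6, from 250 bases before to 50 bases after an annotated start, were matched to 7 of the 9 genes in 9 windows, since Dhcr7 has 3. Cyp51, Msmo1, Nsdhl and Dhcr7 passed the test given below as rises, HFD against ND, in both tissues with adipose ND 1 left out. With it kept, Cyp51 and Nsdhl did not pass in fat. For Hsd17b7, Dhcr7 and Nsdhl the HFD against ND differences were not alike in liver and fat, with adipose ND 1 left out. Windows of these genes are printed. They lie at chr5:4104648-4104947 on the minus strand (Cyp51), chr8:64733529-64733828 minus (Msmo1), chrX:72918271-72918570 plus (Nsdhl), chr1:169969156-169969455 minus (Hsd17b7) and chr7:143829964-143830263 plus (the Dhcr7 window with the highest start coordinate). Each is written 5′ to 3′ along the gene, and capitals mark CCAAT and TCACNNCA on either strand.
Cyp51: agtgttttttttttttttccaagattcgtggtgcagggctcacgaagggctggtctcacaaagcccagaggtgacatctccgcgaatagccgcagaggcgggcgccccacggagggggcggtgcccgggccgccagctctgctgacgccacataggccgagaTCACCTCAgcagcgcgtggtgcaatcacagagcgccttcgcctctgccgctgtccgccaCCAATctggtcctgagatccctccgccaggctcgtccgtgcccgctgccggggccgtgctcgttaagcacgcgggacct
Msmo1: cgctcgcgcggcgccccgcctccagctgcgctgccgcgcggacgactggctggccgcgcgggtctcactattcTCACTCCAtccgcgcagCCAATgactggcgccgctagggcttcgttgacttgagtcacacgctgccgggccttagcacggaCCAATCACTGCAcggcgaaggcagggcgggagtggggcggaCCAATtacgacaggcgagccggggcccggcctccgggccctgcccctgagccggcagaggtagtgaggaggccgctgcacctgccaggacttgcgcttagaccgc
Nsdhl: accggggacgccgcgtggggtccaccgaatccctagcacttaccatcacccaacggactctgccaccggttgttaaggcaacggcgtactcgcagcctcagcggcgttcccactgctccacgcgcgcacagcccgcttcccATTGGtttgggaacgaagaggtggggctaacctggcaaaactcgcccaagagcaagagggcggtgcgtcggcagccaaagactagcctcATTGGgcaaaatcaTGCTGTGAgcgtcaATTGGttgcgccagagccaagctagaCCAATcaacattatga
Hsd17b7: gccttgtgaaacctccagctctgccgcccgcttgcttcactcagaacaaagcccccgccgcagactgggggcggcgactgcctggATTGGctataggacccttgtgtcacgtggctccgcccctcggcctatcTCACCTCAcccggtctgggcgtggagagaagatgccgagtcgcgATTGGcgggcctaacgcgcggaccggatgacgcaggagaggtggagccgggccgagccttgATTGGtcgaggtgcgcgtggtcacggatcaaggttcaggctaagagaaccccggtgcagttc
Dhcr7: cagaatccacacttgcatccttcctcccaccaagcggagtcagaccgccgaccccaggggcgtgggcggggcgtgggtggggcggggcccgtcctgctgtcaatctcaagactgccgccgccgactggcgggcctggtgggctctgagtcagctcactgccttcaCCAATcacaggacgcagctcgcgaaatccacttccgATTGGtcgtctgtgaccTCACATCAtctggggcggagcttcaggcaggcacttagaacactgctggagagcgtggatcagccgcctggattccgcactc

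CCAAT, the core of the NF-Y motif, was present in at least 1 window of all 7 genes, against 37.4% of all 32851 promoter windows of the same length. That share counts windows and not genes, and of the 3 Dhcr7 windows only the printed one held CCAAT. The motif occurred 3 times in the Hsd17b7 and Msmo1 windows and 4 times in the Nsdhl window. TCACNCCAC, a form of the sterol regulatory element, was found in 0 of the 9 windows and in 1.24% of all windows. The looser form TCACNNCA, chosen after the sequences had been read, was found in 13.8% of all windows and in a window of 6 of the 7 genes, the exception being Lss. In the Cyp51 window it began at position -88 from the start, as TCACCTCA, and in the printed Dhcr7 window at -32, as TCACATCA. The second match in the Msmo1 window, TCACTGCA, shares a base with an NF-Y core. The E-box CACGTG was found in 7.15% of all windows, in those of Hsd17b7 and Sc5d and in 1 of Dhcr7. The core of the Sp1 motif, searched as GGGCGG, was found in 35.7% of all windows and in at least 1 window of each of the 7 genes. All motifs were searched on both strands.

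Summed FPKM ranged from 680168 to 930139 in liver libraries and from 527904 to 608819 in 8 fat libraries, and reached 1002765 in the adipose ND 1 library. Read depth is unknown, since FPKM keeps no counts. Spearman correlations across genes were 0.962 to 0.980 among liver libraries, 0.889 to 0.983 among the 8 fat libraries, and 0.664 to 0.822 between adipose ND 1 and the rest. In adipose ND 1, 20 testis germ cell markers (led by Tnp1, Tnp2, Prm2 and Prm1) summed to 111137 FPKM, against 38.9 to 3985 FPKM in the other fat libraries, where ND 3 (3985) and HFD 1 (2549) were highest. The 8 epididymis markers (led there by Lcn8, Gpx5, Lcn5 and Lcn9) summed to 19310 FPKM in it, and to 1275 FPKM in HFD 2 and at most 13.2 FPKM in the rest. The 12 adipocyte markers (led by Fabp4, Car3, Cidec and Cfd on the mean of the 9 fat libraries, and by Fabp4, Cfd, Retn and Pnpla2 in ND 1) summed to 7835 FPKM in adipose ND 1 and to 20368 to 56137 FPKM in the other fat libraries. Values in fat are therefore given with and without adipose ND 1, which leaves 2 ND fat libraries. The 10 hepatocyte markers (led by Apoa2, Alb, Cyp2e1 and Apoa1) summed to 57480 to 98658 FPKM in liver libraries, all of them measured above 10 FPKM except Alb, which is listed at 0 in liver HFD 3. Skeletal muscle markers (9 measured, led by Tnnt3, Ckm, Myh4 and Mylpf) summed to 97.9 FPKM in liver HFD 2, 39.2 in GT 3 and 19.6 in HFD 3, and to at most 3.28 in the other liver libraries.

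Sc5d was the most abundant of the 9 enzymes, per length, in all 9 liver libraries (100.2 to 197.6 FPKM) and in 8 of 9 fat libraries (42.7 to 71.9 FPKM). Lss was the least abundant in all 9 liver libraries (0.699 to 6.08 FPKM). In fat the lowest place fell to Hsd17b7 in 6 libraries and to Sqle in 3. The 9 enzymes summed to 327 to 432 FPKM in GT livers, 312 to 393 FPKM in HFD livers and 174 to 219 FPKM in ND livers. In fat without ND 1 they summed to 153 to 178 FPKM in GT, 205 to 238 FPKM in HFD and 117 to 129 FPKM in ND libraries. Summed levels of the HFD and GT groups thus overlapped in liver and did not overlap in fat.

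**Figure D1:**
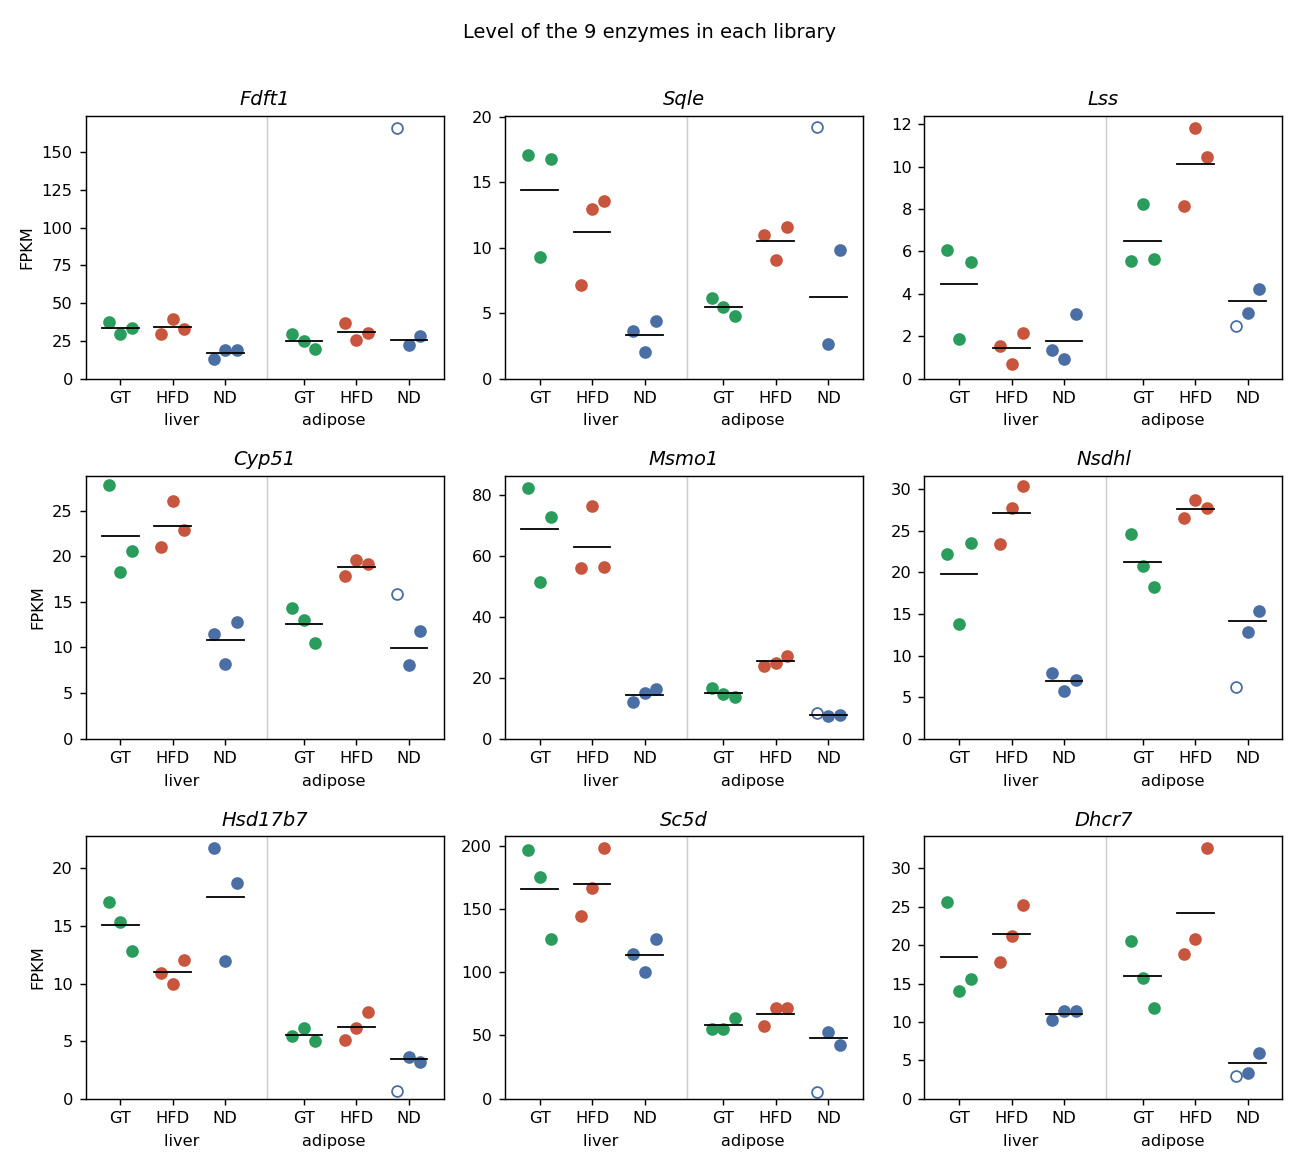
FPKM (vertical axis, linear, starting at 0) of each enzyme in every library, with liver on the left and fat on the right of each panel and GT, HFD and ND from left to right in each tissue. Points are libraries, black bars are means (fat ND without ND 1), and the open symbol is adipose ND 1, which reaches 166.1 FPKM for Fdft1 and 0.669 FPKM for Hsd17b7.

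The first comparison asked how the high-fat diet altered these enzymes in liver. In HFD livers 6 of the 9 rose, relative to ND livers: Msmo1 by 2.04, Nsdhl by 1.83, Sqle by 1.48, Cyp51 by 1.05, Fdft1 by 0.97 and Dhcr7 by 0.89 on the log2(FPKM + 1) scale. None fell by the same test, limma's moderated test with Benjamini-Hochberg adjustment over 10670 genes at 0.05. Of all genes tested, 11.9% rose in this comparison. The median over the 9 members was 0.97, against -0.02 over all genes. All libraries of one group stood above all of the other, HFD over ND, for 7 members and for 23.6% of genes.

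Msmo1 had 56.0, 76.5 and 56.3 FPKM in HFD livers, against 12.1, 15.0 and 16.4 FPKM in ND livers (log2 difference 2.04 ± 0.21 SE, adjusted p = 0.000769, n = 3 each, limma). Every HFD library was more than 3 times above every ND library. Nsdhl had 23.4, 27.8 and 30.4 FPKM in HFD livers, against 7.95, 5.73 and 7.10 FPKM in ND livers (1.83 ± 0.21 SE, adjusted p = 0.00113, limma). Both enzymes act after Cyp51 in the removal of the extra methyl groups. Cyp51 had 21.0, 26.1 and 22.9 FPKM in HFD livers, against 11.5, 8.24 and 12.8 FPKM in ND livers (1.05 ± 0.20 SE, adjusted p = 0.00744, limma), again with no overlap.

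At the entry of the pathway, Fdft1 had 29.8, 39.2 and 32.7 FPKM in HFD livers, against 13.1, 18.7 and 19.1 FPKM in ND livers (0.97 ± 0.18 SE, adjusted p = 0.00744, limma). Sqle had 7.14, 13.0 and 13.5 FPKM in HFD livers, against 3.60, 2.03 and 4.42 FPKM in ND livers (1.48 ± 0.30 SE, adjusted p = 0.0102, limma). For both, the lowest HFD library lay above the highest ND library, with HFD 1 the lowest of the HFD livers. Lss, the step after Sqle, did not follow them. It had 1.53, 0.699 and 2.14 FPKM in HFD livers, against 1.36, 0.944 and 3.07 FPKM in ND livers, with a log2 difference of -0.16 (95% interval -0.97 to 0.66, adjusted p = 0.797, limma). At these low levels the interval covers differences in both directions.

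At the end of the pathway, Dhcr7 had 17.8, 21.3 and 25.2 FPKM in HFD livers, against 10.3, 11.4 and 11.4 FPKM in ND livers (0.89 ± 0.21 SE, adjusted p = 0.0188, limma). Its groups did not overlap. Sc5d averaged 169 ± 26.7 FPKM in HFD livers and 113 ± 12.9 FPKM in ND livers (SD, n = 3 each), with a log2 difference of 0.57 and an adjusted p of 0.068 (limma). Hsd17b7 was the member with the most negative difference: 10.9, 9.92 and 12.1 FPKM in HFD livers, against 21.7, 12.0 and 18.8 FPKM in ND livers (-0.59 ± 0.21 SE, adjusted p = 0.0699, limma). Its highest HFD library lay just above ND 2, its lowest ND library. Hsd17b7 passed as a fall with only the HFD and ND livers in the fit (adjusted p = 0.0471, limma). It also passed as a fall without ND 2 (-0.83, adjusted p = 0.0155) and without GT 3 (-0.59, 0.0356, limma).

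Without HFD 2 and GT 3, the livers with the highest muscle marker sums, 7 members passed the test in place of 6 (limma), the addition being Sc5d (adjusted p = 0.046), and 11% of all genes rose. The Dhcr7 call ended with all libraries scaled to the same FPKM total (adjusted p = 0.072) and without ND 1 (0.0789), ND 3 (0.0651), HFD 2 (0.0778) or HFD 3 (0.0604), the Sqle call ended without HFD 2 (0.0575), and 3 members passed in 1 fit of both tissues. Of 8 adipocyte markers that could be tested in liver, 4 rose in HFD livers, and the 12 summed to 2632 to 3411 FPKM there, against 826 to 1748 FPKM in ND livers. Car3 and Cfd made up most of those sums, while the defining markers Adipoq, Lep and Plin1 reached at most 1.40 FPKM in any liver and were at 0 in most. Macrophage markers summed to 57.9 to 92.1 FPKM in HFD livers and 54.8 to 73.6 FPKM in ND livers. Of 7 tested, 1 rose, where 11.9% of all genes did. The part of either list in the result was not tested.

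The second comparison asked whether the extract altered these levels in livers on the high-fat diet. No member passed the test between GT and HFD livers (0 of 9 by limma, 2 at an unadjusted p under 0.05), where 5.36% of all genes passed it in either direction. The median over the members was -0.02, against -0.04 over all genes. Lss had the largest difference, with 6.08, 1.86 and 5.48 FPKM in GT livers, against 1.53, 0.699 and 2.14 FPKM in HFD livers (1.09 ± 0.37 SE, adjusted p = 0.108, limma). GT 1 and GT 3 stood above all HFD livers, and GT 2 lay within their range. Without GT 2, 1 member passed the test.

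Hsd17b7 was the only member whose GT and HFD livers did not overlap. It had 17.0, 15.3 and 12.8 FPKM in GT livers, against 10.9, 9.92 and 12.1 FPKM in HFD livers (0.42 ± 0.21 SE, adjusted p = 0.252, limma). GT livers lay within the range of the ND livers (12.0 to 21.7 FPKM). Nsdhl had 22.2, 13.8 and 23.6 FPKM in GT livers, against 23.4, 27.8 and 30.4 FPKM in HFD livers (-0.46 ± 0.21 SE, adjusted p = 0.21, limma). Msmo1 had 82.5, 51.5 and 72.9 FPKM in GT livers, so that the groups overlapped widely (difference 0.12, 95% interval -0.34 to 0.58). For Fdft1 the interval was -0.42 to 0.38, for Cyp51 -0.52 to 0.35 and for Sc5d -0.48 to 0.39, and the sign of these 3 differences turned with either other scaling (0.13, 0.06 and 0.11 at equal totals, 0.10, 0.01 and 0.08 with quantile scaling). A p that misses the threshold does not show that the diets acted alike.

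GT against ND livers shares its ND libraries with HFD against ND, so both sets of values are given side by side and are not independent. In GT livers 5 of the 9 rose, relative to ND livers, where 1.27% of all genes rose: Msmo1 by 2.16, Sqle by 1.82, Nsdhl by 1.37, Cyp51 by 0.97 and Fdft1 by 0.95 on the log2 scale (adjusted p between 0.00114 and 0.0291, limma). The HFD against ND differences of these 5 were 2.04, 1.48, 1.83, 1.05 and 0.97. Sqle had 17.1, 9.28 and 16.8 FPKM in GT livers, and Msmo1 51.5 to 82.5 FPKM, with no overlap with the ND livers for either. Dhcr7 (0.65, adjusted p = 0.153), Sc5d (0.53, 0.21), Lss (0.94, 0.235) and Hsd17b7 (-0.17, 0.715) did not pass. All GT livers stood above all ND livers for 6 members and for 8.43% of genes.

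GT 1 was the highest of the GT livers for 8 of the 9 members, and GT 2 the lowest for 7. HFD 3 was the highest HFD liver for 6 members and HFD 1 the lowest for 7. The count of members called against ND was 2 without ND 1 or without GT 1 and 3 without ND 3 (limma). It was also 3 with no filter on low values and with only GT and ND livers in the fit, and 2 in 1 fit of both tissues. The share of all genes called in these fits is not reported here. Msmo1 and Nsdhl passed in every alternative run here.

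**Figure D2:**
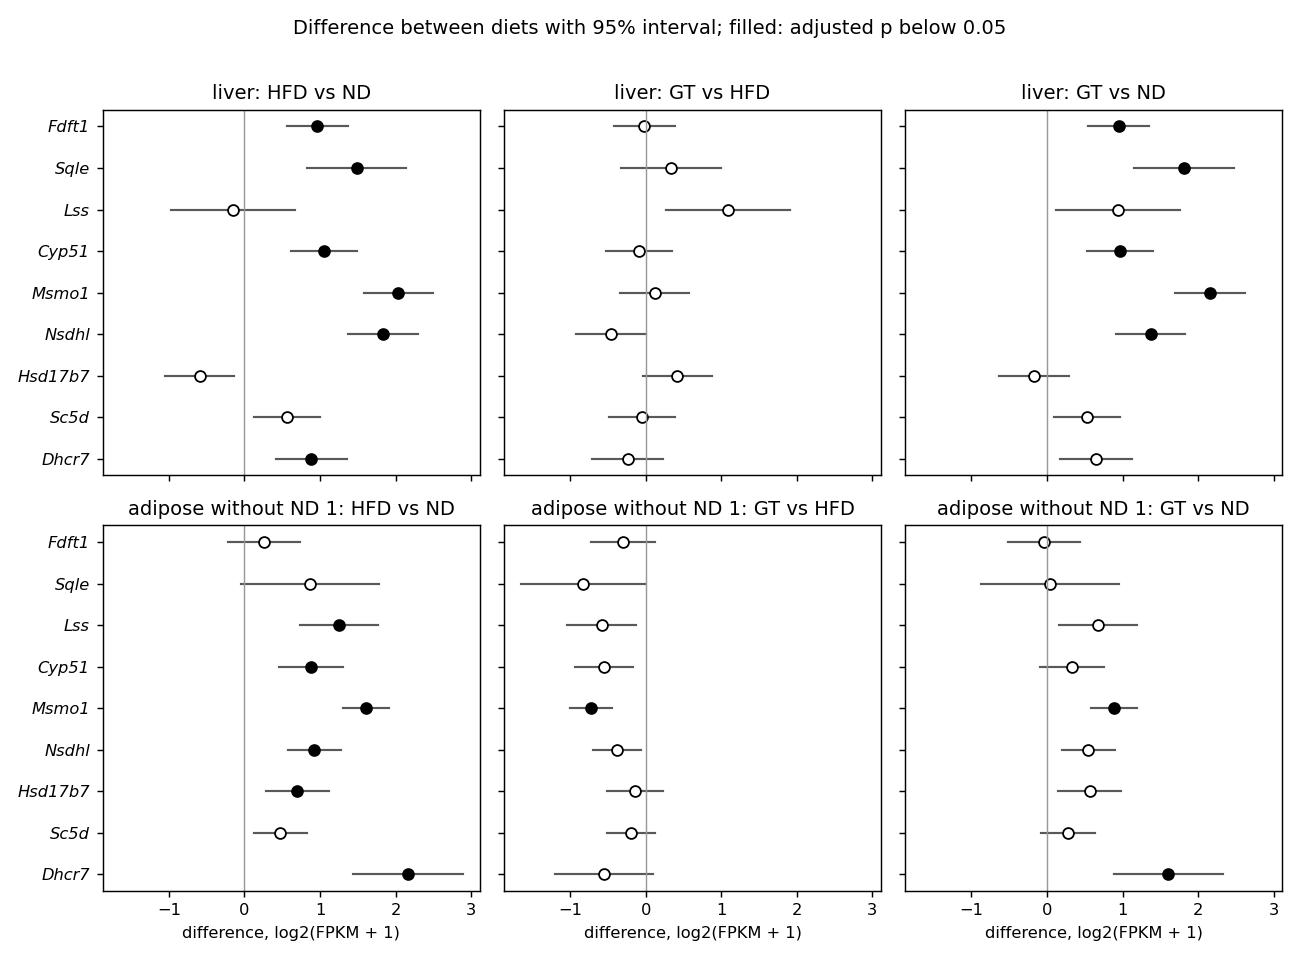
Difference between diets for each enzyme on the log2(FPKM + 1) scale (horizontal axis) with its 95% interval, in liver (top) and in fat without ND 1 (bottom), for HFD vs ND, GT vs HFD and GT vs ND. Filled symbols passed limma's test at an adjusted p of 0.05: 6, 0 and 5 in liver and 6, 1 and 2 in fat.

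In epididymal fat the same question was asked with and without the adipose ND 1 library. With all 9 libraries, 3 members rose in HFD fat, relative to ND fat (limma): Dhcr7 by 2.31, Msmo1 by 1.57 and Lss by 1.39 on the log2 scale (adjusted p = 0.00854, 0.00657 and 0.0212). None fell. Of all genes, 5.28% rose. Without ND 1, 6 members rose and 17.8% of all genes did: Dhcr7 by 2.16, Msmo1 by 1.61, Lss by 1.25, Nsdhl by 0.93, Cyp51 by 0.88 and Hsd17b7 by 0.70. The median over the members was then 0.88, against 0.02 over all genes, and HFD libraries all stood above ND libraries for 7 members and for 30% of genes.

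Dhcr7 had 18.9, 20.9 and 32.7 FPKM in HFD fat, against 3.30 FPKM in ND 2 and 5.94 FPKM in ND 3 (2.16 ± 0.32 SE, adjusted p = 0.00243, limma, without ND 1). Adipose ND 1, at 3.03 FPKM, lay below both. Msmo1 had 23.9, 25.0 and 27.3 FPKM in HFD fat, against 7.54 and 7.70 FPKM in ND 2 and ND 3 (1.61 ± 0.13 SE, adjusted p = 0.00104, limma), and 8.50 FPKM in ND 1. It was the steadiest of the members in fat, with each diet in a narrow band of its own. Lss had 8.15, 11.8 and 10.5 FPKM in HFD fat, against 3.09 and 4.24 FPKM in ND 2 and ND 3 (1.25 ± 0.22 SE, adjusted p = 0.00521, limma), and 2.49 FPKM in ND 1. With all 9 libraries, its call ended with the replicate number as a block (adjusted p = 0.0529), with only the HFD and ND libraries in the fit (0.115) and without HFD 1 (0.055), HFD 2 (0.11) or HFD 3 (0.122).

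Nsdhl had 26.6, 28.7 and 27.8 FPKM in HFD fat, against 12.9 and 15.4 FPKM in ND 2 and ND 3 (0.93 ± 0.15 SE, adjusted p = 0.0038, limma). Cyp51 averaged 18.8 ± 0.949 FPKM in HFD fat (SD, n = 3), against 8.12 and 11.8 FPKM in ND 2 and ND 3 (0.88 ± 0.18 SE, adjusted p = 0.0102, limma). Hsd17b7 had 5.06, 6.14 and 7.55 FPKM in HFD fat, against 3.62 and 3.22 FPKM in ND 2 and ND 3 (0.70 ± 0.18 SE, adjusted p = 0.0228, limma). For these 3 enzymes all HFD libraries stood above both ND libraries. With all 9 libraries none of the 3 passed: Nsdhl stood at 1.28 ± 0.32 SE (adjusted p = 0.0607), Cyp51 at 0.66 ± 0.27 SE (0.219) and Hsd17b7 at 1.17 ± 0.40 SE (0.151, limma). Without ND 1, the Hsd17b7 call ended with quantile scaling (adjusted p = 0.0832), with the replicate number as a block (0.0517), with only the HFD and ND libraries in the fit (0.0649) and without ND 3 (0.061), HFD 2 (0.0563) or HFD 3 (0.0795). A fit without ND 1 that also leaves out ND 2 or ND 3 has 1 ND fat library, which is assumed to vary like the libraries of the other groups.

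Sc5d had 57.4 to 71.9 FPKM in HFD fat, against 52.9 and 42.7 FPKM in ND 2 and ND 3 (0.48 ± 0.16 SE, adjusted p = 0.053, limma), also without overlap. With ND 1, at 5.66 FPKM, the Sc5d difference was 1.43 ± 0.71 SE (adjusted p = 0.276, limma). Sqle had 10.9, 9.05 and 11.6 FPKM in HFD fat, against 2.64 and 9.84 FPKM in ND 2 and ND 3 (0.87 ± 0.40 SE, adjusted p = 0.143, limma). The ND libraries lay far apart, and ND 3 reached into the HFD range. With ND 1, at 19.2 FPKM, the Sqle difference was 0.31 ± 0.55 SE (adjusted p = 0.731, limma). Fdft1 had 36.6, 25.7 and 30.0 FPKM in HFD fat, against 22.5 and 28.3 FPKM in ND 2 and ND 3 (0.26, 95% interval -0.22 to 0.74, adjusted p = 0.389, limma).

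Of the HFD against ND differences, those of Sc5d, Fdft1 and Sqle moved most with the choice of libraries. Adipose ND 1 held 6.54 times the mean of ND 2 and ND 3 for Fdft1 (166.1 FPKM) and 3.07 times for Sqle. It held 0.118 times that mean for Sc5d, 0.196 times for Hsd17b7 and 0.439 times for Nsdhl. The high Fdft1 and Sqle and the low Sc5d thus stood in the library with 111137 FPKM of testis markers, whose part in these levels was not tested. With ND 1 the HFD against ND difference of Fdft1 was -0.63 ± 0.67 SE (adjusted p = 0.564, limma), and without it 0.26.

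Macrophage and adipocyte markers moved with the diet in fat. All 11 macrophage markers (led by Lyz2, Mmp12, Ctss and Gpnmb) rose in HFD fat without ND 1, and they summed to 5345 to 7640 FPKM in HFD fat, against 472 to 608 FPKM in ND 2 and ND 3, with none at 0. Of the 12 adipocyte markers 10 fell and 1 rose, with sums of 20368 to 23638 FPKM in HFD fat, against 37437 and 56137 FPKM in ND 3 and ND 2. Their part in the enzymes' differences was not tested, and in bulk tissue a change in the cells present and a change of RNA per cell cannot be told apart. Without the 3 fat libraries with most testis transcripts (ND 1, ND 3 and HFD 1), 7 members rose, now with Sqle (adjusted p = 0.00996), and 21% of all genes did. That fit sets 2 HFD libraries against 1 ND library, ND 2, whose Sqle level of 2.64 FPKM was the lowest of the fat libraries, and takes its spread from the HFD and GT libraries. With all 9 fat libraries, leaving out HFD 3 left 0 members called, leaving out ND 2 gave 5, and 1 fit of both tissues gave 5. The share of all genes called in these fits is not reported here. The counts are therefore not read as particular to the members.

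The extract's comparison in fat gave negative differences for all 9 members, GT against HFD, from -0.83 (Sqle) to -0.14 (Hsd17b7). The differences are the same with and without ND 1, which is in neither group, and with ND 1 in the fit every member had an adjusted p of 1. The median over the members was -0.55, against -0.12 over all genes without ND 1. Quantile scaling turned the sign of Hsd17b7 (0.05). With all 9 libraries 0 members passed (limma, 1 at an unadjusted p under 0.05), as did 0% of all genes, of which 467 had an unadjusted p under 0.05. Without ND 1, 1 member fell, as did 0.801% of all genes: Msmo1, which had 16.7, 14.8 and 13.5 FPKM in GT fat, against 23.9, 25.0 and 27.3 FPKM in HFD fat (-0.72 ± 0.12 SE, adjusted p = 0.0448, limma). Every HFD library stood above every GT library.

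GT libraries all lay below HFD libraries for 4 members and for 24.5% of genes. The 4 were Msmo1, Sqle, Cyp51 and Nsdhl. Sqle had 6.16, 5.49 and 4.76 FPKM in GT fat, against 10.9, 9.05 and 11.6 FPKM in HFD fat (-0.83 ± 0.35 SE, adjusted p = 0.214, limma without ND 1). Cyp51 had 14.3, 13.0 and 10.5 FPKM in GT fat, against 17.8, 19.6 and 19.1 FPKM in HFD fat (-0.55 ± 0.17 SE, adjusted p = 0.116, limma). Nsdhl had 24.7, 20.7 and 18.3 FPKM in GT fat, against 26.6 to 28.7 FPKM in HFD fat (-0.38 ± 0.14 SE, adjusted p = 0.16, limma). None of these 3 passed the adjusted threshold.

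Lss (-0.58, adjusted p = 0.147), Dhcr7 (-0.56, 0.283), Fdft1 (-0.30, 0.374), Sc5d (-0.20, 0.439) and Hsd17b7 (-0.14, 0.651) overlapped between GT and HFD fat. The Msmo1 difference stayed between -0.80 and -0.61 in the alternatives run without ND 1, but its call ended without HFD 1 (adjusted p = 0.104), HFD 2 (0.132), HFD 3 (0.231), GT 2 (0.199) or GT 3 (0.139), at equal FPKM totals (0.0521), with quantile scaling (0.0709), with no filter (0.0913) and with a plain variance prior (0.0584). With only the GT and HFD libraries in the fit, or without ND 3, 3 members passed, and without ND 2, 2 did. Macrophage marker sums were 1734 to 4445 FPKM in GT fat and 5345 to 7640 FPKM in HFD fat, and adipocyte marker sums were 31449 to 41770 FPKM in GT fat and 20368 to 23638 FPKM in HFD fat. Of these lists 0 of 11 macrophage and 4 of 12 adipocyte markers passed the test, the 4 rising, and their part in the members' differences was not tested.

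GT against ND fat, which shares its ND libraries with HFD against ND and its GT libraries with GT against HFD, gave 0 members called with all 9 libraries (limma, 5 at an unadjusted p under 0.05), where 0.639% of all genes passed. Without ND 1, 2 members rose, as did 7.5% of all genes. Dhcr7 had 20.5, 15.7 and 11.8 FPKM in GT fat, against 3.30 and 5.94 FPKM in ND 2 and ND 3 (1.61 ± 0.32 SE, adjusted p = 0.0197, limma). Msmo1 stood at 13.5 to 16.7 FPKM, against 7.54 and 7.70 FPKM (0.89 ± 0.13 SE, adjusted p = 0.0104, limma). With ND 1 the differences were 1.75 ± 0.33 SE for Dhcr7 (adjusted p = 0.0658) and 0.84 ± 0.19 SE for Msmo1 (0.102, limma). With ND 1 and then without it, the differences were 0.90 and 0.55 for Nsdhl, 1.03 and 0.56 for Hsd17b7, 0.81 and 0.67 for Lss, 1.24 and 0.28 for Sc5d and 0.11 and 0.33 for Cyp51, none of which passed. Fdft1 stood at -0.93 with ND 1 and at -0.04 without it, also short of the threshold. GT libraries all stood above ND 2 and ND 3 for 6 members and for 21.3% of genes. Among GT fat libraries, GT 3 was the lowest for 7 members and GT 1 the highest for 6, and GT 3 also had the lowest macrophage sum (1734 FPKM). Without GT 2 no member was called (0), without GT 1 it was 1, with only the GT and ND libraries 0, and with quantile scaling 4. Sqle, at -0.52 with all 9 libraries and 0.04 in the 8, turned on which ND library was left: it stood at -0.75 (adjusted p = 0.0345, limma) against ND 3 alone and at 0.82 (0.0402) against ND 2 alone, both with an ND group of 1 library whose spread is assumed.

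Whether the high-fat diet moved the enzymes differently in liver and fat was tested as a difference of differences, liver minus fat. Without adipose ND 1 (17 libraries), 3 members differed (limma), where 21.5% of 9957 genes did. Hsd17b7 differed by -1.29 ± 0.28 SE (adjusted p = 0.00406), with -0.59 in liver and 0.70 in fat. Dhcr7 differed by -1.28 ± 0.38 SE (adjusted p = 0.0251), with 0.89 in liver and 2.16 in fat. Nsdhl differed by 0.91 ± 0.28 SE (adjusted p = 0.0274), with 1.83 in liver and 0.93 in fat. Hsd17b7 was thus higher in all HFD fat libraries than in ND 2 and ND 3, while its HFD livers lay below 2 of 3 ND livers.

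Lss had a larger gap than these, -1.41, with -0.16 in liver and 1.25 in fat, but its wider error left it short of the threshold (95% interval -2.46 to -0.36, adjusted p = 0.0532, limma). Msmo1, the largest riser in liver, differed by 0.43 (95% interval -0.13 to 0.98) and Cyp51 by 0.18 (-0.42 to 0.77). With all 18 libraries, Hsd17b7 (-1.76, adjusted p = 0.0272) and Dhcr7 (-1.42, adjusted p = 0.0424) passed, as did 8.53% of genes, and leaving out 1 library gave 0 to 4 members called. In 17 libraries the Dhcr7 call ended without adipose ND 2 (adjusted p = 0.134), adipose HFD 3 (0.0719), liver ND 3 (0.052) or liver HFD 1 (0.0559). The Nsdhl call ended at equal totals (0.141) and without the 3 fat libraries with testis transcripts (0.122), among others, and leaving out adipose HFD 3 left 1 member called.

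**Figure D3:**
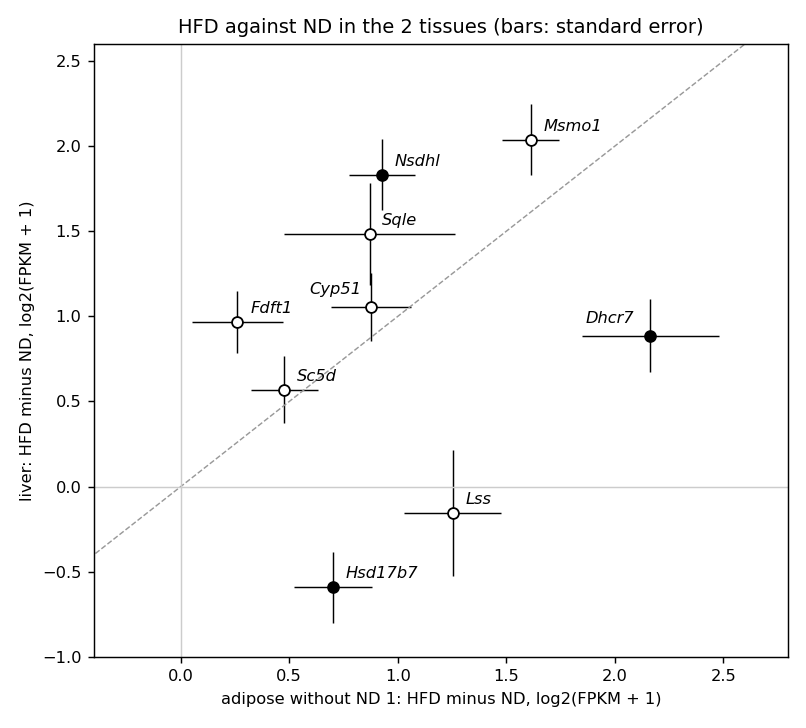
HFD minus ND difference on the log2(FPKM + 1) scale in liver (vertical axis) against fat without ND 1 (horizontal axis) for the 9 enzymes, with standard errors. Filled symbols are Hsd17b7, Dhcr7 and Nsdhl, whose tissue difference passed the test in 17 libraries, and the dashed line marks equal differences in the 2 tissues.

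For GT against HFD, 0 members had a tissue difference that passed (limma) with 17 libraries (3 at an unadjusted p under 0.05) or with 18 (2), where 3.88% and 0.00996% of genes passed. Lss differed by 1.68 ± 0.47 SE (adjusted p = 0.0561, 17 libraries), with 1.09 in liver and -0.58 in fat. Msmo1 differed by 0.84 ± 0.25 SE (adjusted p = 0.0658), with 0.12 in liver and -0.72 in fat. Msmo1 passed at equal totals (adjusted p = 0.0414, limma) and with quantile scaling (0.042). Lss passed with only 2 diets in the fit, and without liver ND 3 or liver HFD 3. Lss stood at 1.81 without the 3 fat libraries with testis transcripts, and at 1.68 without adipose ND 2 or adipose ND 3. Each of these fits holds 1 ND fat library. Without liver GT 2, 2 passed.

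As levels, with fat ND 1 left out, Msmo1, Hsd17b7 and Sc5d were higher in all liver libraries than in all fat libraries of the same diet. The liver mean was 4.60, 2.48 and 1.90 times the fat mean for Msmo1 in GT, HFD and ND mice, and 2.72, 1.76 and 5.11 times for Hsd17b7. Lss went the other way in HFD mice, with a liver mean of 0.144 times the fat mean and no overlap, and in ND mice (0.489 times), while its GT values overlapped between the tissues. Fdft1 and Nsdhl were lower in liver than in fat in ND mice (0.668 and 0.489 times, no overlap). In HFD mice both overlapped between the tissues. Fdft1 was higher in liver than in fat in GT mice (1.34 times, no overlap). FPKM totals also differed between the tissues, at 680168 to 881697 in GT livers and 544881 to 555804 in GT fat. All ratios here are of FPKM not rescaled to equal totals.

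The upstream mevalonate enzymes were read beside the members. Of all genes, 11.9% rose in HFD livers and 1.27% in GT livers, relative to ND, and 5.36% passed between GT and HFD livers. Without ND 1, 17.8% rose in HFD fat and 7.5% in GT fat, relative to ND. In HFD livers 6 of 7 tested rose and 0 fell, relative to ND: Fdps, which makes farnesyl diphosphate (2.20), Hmgcs1, which makes HMG-CoA (1.64), Acat2 (1.16), Idi1 (1.14), Mvk (0.62) and Pmvk (0.54), with a list median of 1.14 against -0.02 over all genes. In GT livers 4 of 7 rose, relative to ND: Mvk (1.14), Idi1 (1.34), Fdps (1.61) and Hmgcs1 (1.23). Between GT and HFD livers 1 rose, Mvk (0.52 ± 0.13 SE, adjusted p = 0.0474, limma). In HFD fat without ND 1, 4 of 7 rose (Fdps 1.41, Mvk 0.72, Idi1 0.72, Acat2 0.46) and Hmgcs1 fell (-0.46 ± 0.13 SE, adjusted p = 0.0328, limma). Hmgcs1 rose in GT fat, relative to HFD fat (0.68 ± 0.12 SE, adjusted p = 0.0457, limma), where Msmo1 fell. In GT fat 2 of 7 rose, relative to ND, Mvk (0.82) and Fdps (0.89). With ND 1 kept, 0 of 7 passed in each fat comparison (limma, with Idi1 and Mvk at an unadjusted p under 0.05 in HFD against ND, Idi1 in GT against HFD and Mvk in GT against ND), and Hmgcs1 stood at 0.62 ± 0.80 SE in HFD fat, relative to ND, the opposite sign.

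Of 4 other enzymes after squalene, 2 rose in HFD livers, relative to ND: Erg28, a scaffold of the demethylation complex (0.85), and Tm7sf2, a sterol reductase (0.61). In HFD fat without ND 1, 1 of the 4 rose, where 17.8% of all genes did: Ebp, a sterol isomerase (0.62 ± 0.17 SE, adjusted p = 0.0263, limma). With ND 1 kept, Ebp stood at 0.36 ± 0.28 SE (adjusted p = 0.443, limma). Erg28 rose in GT livers, relative to ND (0.70). In GT fat, relative to ND, 0 passed (limma, 1 at an unadjusted p under 0.05). Between GT and HFD 0 of the 4 passed in either tissue (limma), also at an unadjusted p under 0.05.

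Among 10 genes of sterol sensing, Insig1, itself a target of SREBP2, rose in HFD livers (1.12), GT livers (1.62), HFD fat (1.54) and GT fat (1.46), each relative to ND of its tissue (limma, fat without ND 1). Scap fell in HFD livers (-0.70) and Insig2 in HFD fat (-0.73), where Mbtps2, a protease that releases SREBP2, rose (0.52). With ND 1 kept, Insig1 passed in HFD fat (2.14 ± 0.47 SE, adjusted p = 0.0393, limma) and missed the threshold in GT fat (2.05 ± 0.47 SE, adjusted p = 0.105, limma), both relative to ND, and neither Insig2 nor Mbtps2 passed. Srebf2, the gene of SREBP2, stood at 0.28 in HFD livers (adjusted p = 0.25) and 0.79 in HFD fat (adjusted p = 0.0637). Between GT and HFD livers Stard4, a cholesterol carrier, rose (0.80 ± 0.18 SE, adjusted p = 0.0311, limma), and in fat 0 of 10 passed (limma, 3 at an unadjusted p under 0.05). The list medians for HFD against ND were -0.16 in liver and 0.15 in fat, against -0.02 and 0.02 over all genes. Of the 10, 1 rose in HFD livers and 2 in HFD fat without ND 1, near the 11.9% and 17.8% of all genes.

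**Figure D4:**
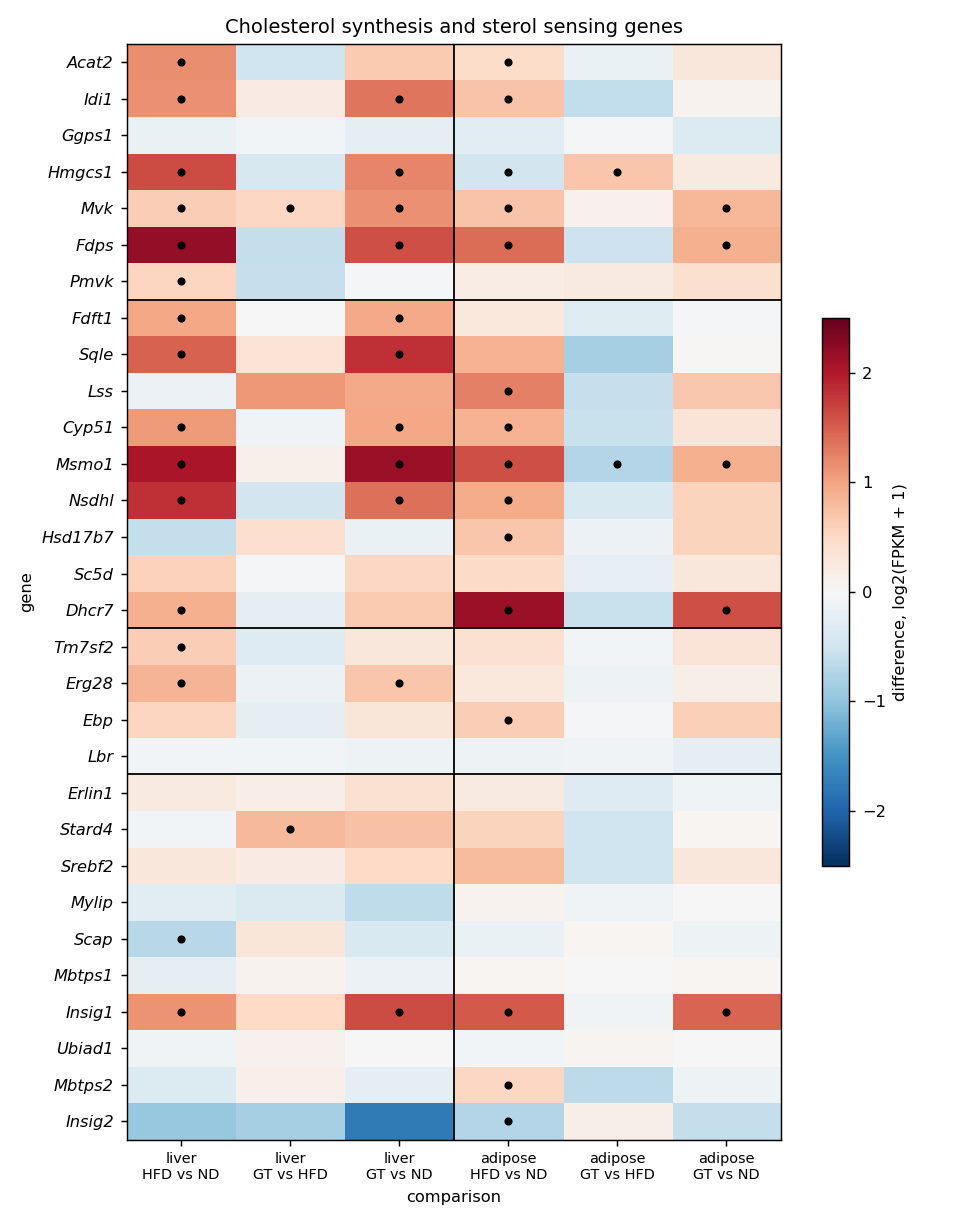
Difference on the log2(FPKM + 1) scale (colour) for mevalonate enzymes, the 9 enzymes, other enzymes after squalene and sterol sensing genes, from top to bottom, in liver (left) and fat without ND 1 (right). Black dots mark an adjusted p below 0.05, which Insig1 reached in both tissues for HFD vs ND and GT vs ND.

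Over the 9 livers, 5 non-member genes lay nearest to the members' mean z-scored profile. They were Vac14 (root mean square difference 0.217), Idi1 (0.229), Otc (0.286), Ccdc62 (0.307) and Plpbp (0.324). Idi1 had 33.6, 22.3 and 24.5 FPKM in GT livers, 22.3 to 23.3 FPKM in HFD livers and 7.32 to 11.4 FPKM in ND livers. Sqle (0.227) and Cyp51 (0.246) were as near, while Lss (0.894) and Hsd17b7 (1.49) were the members farthest from their own mean. Over the 8 fat libraries without ND 1 the nearest were Taok3 (0.0815), Zranb3 (0.0961), Dnmt3a (0.097), Mmp2 (0.0982) and B4galt5 (0.102). Taok3 had 9.80 to 14.8 FPKM in GT fat, 20.7 to 27.9 FPKM in HFD fat and 4.31 and 6.35 FPKM in ND 2 and ND 3. The nearest member was Nsdhl (0.184), at rank 82 of all genes, and the farthest were Fdft1 (0.869), Sc5d (0.718) and Sqle (0.661). Each member is itself part of the mean it is set against. These distances describe profiles over libraries of 3 diets in 1 tissue, and many genes share such a profile.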

How the data were processed

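Poly(A) RNA-seq of liver and epididymal fat was analysed from FPKM values that the authors deposited as 1 table of 18 libraries, with 0 columns of no sample. CASAVA 1.8.2, STAR 2.4.0 and Cufflinks 2.1.1 are named in the submitters' processing notes, while no source used here names the genome build. Of 23474 identifiers 22671 matched a symbol in GENCODE M21. Groups came from the labels. Read depth is unknown, so no counting interval was computed.

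Values were tested as log2(FPKM + 1) in limma (version 3.58.1, under R version 4.3.3), fitting each diet's mean with trended and robust empirical Bayes variances, and Benjamini-Hochberg adjustment over all genes of a contrast at 0.05. Genes needed 1 FPKM in at least 3 libraries of a fit (of each tissue, for tissue differences). This kept 13762 genes in fat, 12859 without ND 1, 10670 in liver, and 10042 and 9957 for tissue differences in 18 and 17 libraries. Fold changes on this scale understate the change of low genes. All 9 members passed this filter in every fit. The steps were tested on simulated data. Tables and motif searches used pandas 2.3.3 and NumPy 2.4.6 under Python 3.11.15, and figures matplotlib 3.10.9.

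The members and lists were chosen with earlier results of these data known. Text names all members and the called genes of the pathway lists (up to 6 a list, smallest p first). It also names the 4 most abundant markers of a cell type list and the 5 non-member genes nearest in profile. Srebf2, Adipoq, Lep and Plin1 were added after their values were seen, and some genes of the pathway are not reported here. Alternatives changed the added constant (0.1), the filter (none, or 5 FPKM), the scaling (equal totals, quantile), the variance prior, the libraries in a fit, and a block on replicate number. Those without fat libraries with testis transcripts or livers with muscle transcripts were chosen after seeing the data.

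Same-numbered libraries deviated together (r above 0.1) in 6 of 9 pairs in fat, 3 of 7 without ND 1, 4 of 9 in liver and 2 of 9 across tissues. Differently numbered libraries did so in 5 of 18, 5 of 14, 7 of 18 and 6 of 18 pairs. Not every same-numbered pair passed this level, and the numbers were not taken to pair libraries. With 2 or 3 libraries per group, deviations from the group mean offset each other, so these counts cannot exclude a pairing.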

Additional observations from a re-analysis of the deposited data

Results flagged for a closer look

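The difference between HFD and ND was not the same in liver and fat for 3 enzymes, by a test of the tissue difference itself (liver minus fat, limma, adjusted over all genes), where 21.5% of all genes passed it in 17 libraries and 8.53% in 18. Hsd17b7 differed by -1.29 in 17 libraries and by -1.76 in all 18. Dhcr7 differed by -1.28 in 17 libraries and by -1.42 in 18. With 18 libraries the Hsd17b7 call ended in 8 of 26 alternatives and the Dhcr7 call in 11 of 26. Nsdhl differed by 0.91 in 17 libraries, and with all 18 by 0.55 (adjusted p = 0.346, limma). In 17 libraries its call ended at equal totals (adjusted p = 0.141, limma), among others. In fat, macrophage marker sums moved with the same diets (5345 to 7640 FPKM in HFD fat, 472 to 608 FPKM in ND 2 and ND 3), while liver sums were 57.9 to 92.1 FPKM in HFD and 54.8 to 73.6 FPKM in ND livers, and their part in these differences was not tested.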

How the results depend on the processing

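Of 2432 repeats of the members' differences, 2218 kept direction and side of the threshold, 90 lost and 74 gained a call, 49 moved without a call, and 1 reversed: Sqle in GT against ND fat without ND 1, at 0.04, stood at -0.75 (adjusted p = 0.0345, limma) when ND 2 was also left out and at 0.82 (0.0402) when ND 3 was, each time against 1 ND library assumed to vary like the other groups. The cause of these shifts was not tested, except that leaving out libraries or diets leaves fewer samples.

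Counts of members called, rising or falling, are given next, with the range on leaving out 1 library each. For such repeats, here and elsewhere, the share of all genes called is not reported unless stated. A changed count is therefore not read as particular to the members. HFD against ND in fat gave 3 (0 to 6), and 5 in 1 fit of both tissues. GT against HFD in fat gave 0 (0 to 1), and 3 with only the 2 diets. GT against ND in fat gave 0 (0 to 3), 1 with quantile scaling and 4 in 1 fit of both tissues. Without ND 1, HFD against ND gave 6 (5 to 7). GT against HFD then gave 1 (0 to 3), with 0 for no filter, equal totals, quantile scaling or a plain variance prior, and 3 with only the 2 diets. GT against ND gave 2 (0 to 3), 4 with quantile scaling and 0 with only the 2 diets. In liver, HFD against ND gave 6 (4 to 8) and 3 in 1 fit of both tissues. The 8, without GT 3, include Hsd17b7 as a fall (-0.59, adjusted p = 0.0356, limma). GT against HFD in liver gave 0 (0 to 1). GT against ND in liver gave 5 (2 to 6), with 3 for no filter or only the 2 diets and 2 in 1 fit of both tissues. Tissue differences in 18 libraries gave 2 (0 to 4) for HFD against ND, 0 with only the 2 diets, and 0 (0 to 0) for GT against HFD, 1 with only the 2 diets. In 17 libraries they gave 3 (1 to 4) and 0 (0 to 2), the second becoming 1 with equal totals, quantile scaling, only the 2 diets or without the 3 fat libraries with testis transcripts.

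With the replicate number as a block, the counts became 2 for HFD against ND in fat (Lss lost) and 5 without ND 1 (Hsd17b7 lost), 0 for GT against HFD and 0 for GT against ND in fat without ND 1, 1 for GT against HFD and 3 for GT against ND in liver, and 1 for HFD against ND in 18 libraries. In 4 of 9 fat and 5 of 9 liver libraries the best correlation was with a library of the same number. Scaling to equal totals moved the median over all genes for HFD against ND to -0.20 in liver (main -0.02) and 0.41 in fat with ND 1 (main 0.13). With the filter at 5 FPKM, Lss was left out of the liver and tissue difference fits and so gave no value there. Unknown depth limits what can be said of Lss in liver and Hsd17b7 in adipose ND 1, the lowest values here.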
